A study of Mus musculus with 12 samples.

Results

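The transcriptional response of the mouse kidney to cisplatin was measured in animals that had all received dichloroacetate. The combination group (cisplatin plus dichloroacetate, 3 mice) was compared with the dichloroacetate group (3 mice), which makes 6 of the 12 libraries of the study. All mice were male BALB/c, an inbred laboratory strain, and 8 weeks old. The dichloroacetate mice were injected with 250 mg/kg dichloroacetate each day for 6 days, and the time from the last injection to sacrifice is not in the labels. The combination mice had the same daily dose for 5 days, then 20 mg/kg cisplatin once together with dichloroacetate, and were killed 24 h later. The other two groups of 3 mice, saline and cisplatin with saline pretreatment, gave the response without dichloroacetate. Members were all genes that passed a filter on low counts, which left 20370 of the 28991 gene identifiers in the deposited count table. The replicates are separate mice. Kidneys were sequenced whole, so fewer cells of a type and less RNA per cell cannot be told apart.

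Cisplatin is a platinum drug that crosslinks DNA, and its dose is limited by damage to the proximal tubule, the segment that takes it up from the blood through the organic cation transporter Slc22a2. Platinum adducts stall RNA polymerase and DNA replication and activate the transcription factor p53, and the oxidative stress that follows releases NRF2, the factor that drives antioxidant genes. Dichloroacetate inhibits the pyruvate dehydrogenase kinases (Pdk1 to Pdk4). These kinases switch off the enzyme complex that feeds pyruvate into the citric acid cycle, so the drug favours the oxidation of pyruvate. It is itself degraded by the glutathione transferase Gstz1. The study's title concerns protection of the kidney from cisplatin by this drug.

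Library totals were 29505929 to 35082408 counts in the combination mice and 41525403 to 62237514 in the dichloroacetate mice. Principal components of these 6 libraries put the groups apart on the first axis (67.9% of the variance). The second (12.2%) set dichloroacetate replicate 3 (-33.8) apart from replicates 1 and 2 (15.7 and 17.9). That library had 2254 CPM (a gene's counts scaled to an equal library size) of the noncoding RNA Gm42418 and 652 CPM of Lars2, against at most 297 and 104 CPM in the other dichloroacetate mice. The combination mice lay between, with 841, 808 and 709 CPM of Gm42418 and 182, 176 and 149 CPM of Lars2. Neither gene differed between the groups at the threshold (edgeR, adjusted p = 0.769 and 0.331). Reads from the mitochondrial genome made up 12.2% ± 0.279 (SD, n = 3) of counts in the combination group and 15.1% ± 0.569 in the dichloroacetate group (exact two-sided permutation test, p = 0.1, the smallest value 3 against 3 mice allow). Their part in the results was not tested. Markers of the proximal tubule, loop of Henle and glomerulus were present in all libraries. Umod, a kidney-specific urinary protein, was between 802 and 2112 CPM.

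Cisplatin changed 8286 genes (40.7% of those tested) under dichloroacetate, 4377 of them upward (21.5%) and 3909 downward (19.2%). A gene is said here to have risen or fallen, or to be called, where its adjusted p was below 0.05 (edgeR quasi-likelihood test, Benjamini-Hochberg over all 20370 genes). Log2 fold changes are combination relative to dichloroacetate, so that 1 unit is a doubling. Most changes were small: the middle 50% of all genes lay between -0.25 and 0.24, the median was 0.012, and 715 genes rose (3.51%) and 962 fell (4.72%) by at least 1 unit. The values of the 3 combination mice did not overlap those of the 3 dichloroacetate mice for 10761 genes (52.8%). Without dichloroacetate replicate 3, 3867 genes rose and 3641 fell, and 7053 genes kept their call and direction.

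The response to the same drug without dichloroacetate came from the other 6 mice, 3 given cisplatin and 3 given saline, which share no animal with this comparison. There 12244 genes (60.1%) were called. Of the 8286 genes called under dichloroacetate, 86.8% were also called without it, and these made up 58.7% of the genes called without it. In both 7082 genes moved in the same direction and 108 in opposite directions. The difference of the responses (response under dichloroacetate minus response without) was tested as an interaction and was called for 3783 genes (18.6%), 2327 with a positive and 1456 with a negative difference (11.4% and 7.15%). Among the 8286 genes that responded under dichloroacetate the difference was called for 27.9%. The response was smaller under dichloroacetate for 1937 of them, larger for 118 and of opposite sign for 256. These classes hold 2311 of the 3783 genes with a called difference. The rest had no called response under dichloroacetate and were not classed. The 721 genes with a smaller rise had a median log2 fold change of 0.45 with and 0.98 without dichloroacetate. The 1216 genes with a smaller fall had medians of -0.53 and -1.14. These classes were drawn from the same contrasts, so the medians only describe them.

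**Figure D1:**
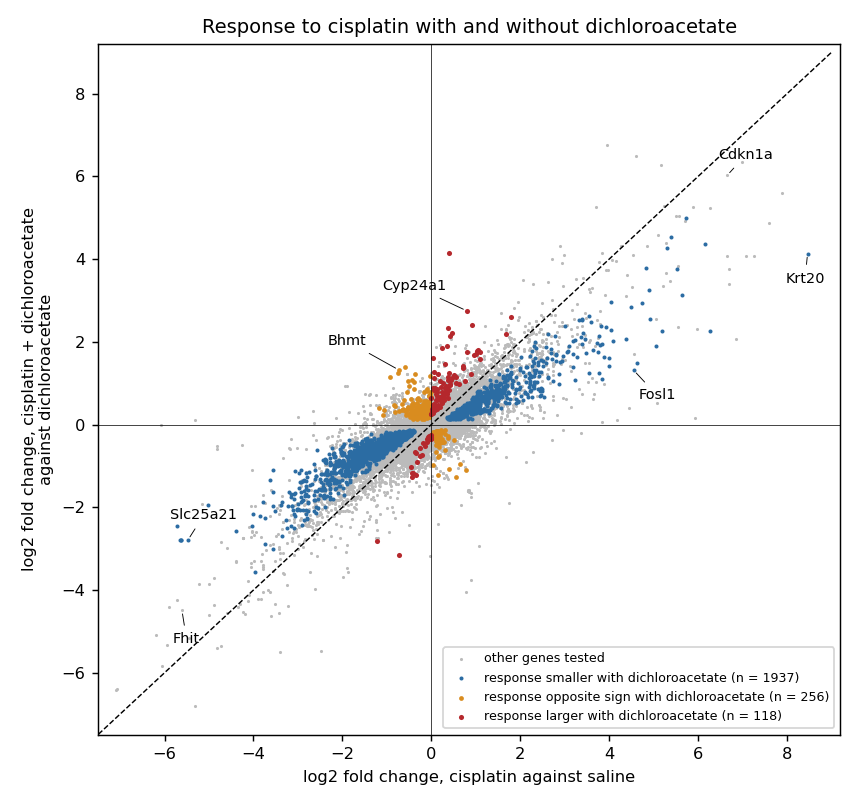
Log2 fold change to cisplatin in mice given dichloroacetate (y axis) against that in mice without it (x axis) for all 20370 genes tested. The dashed line marks equal responses, and coloured points are genes called under dichloroacetate whose difference of responses was also called: 1937 smaller, 256 of opposite sign and 118 larger.

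The response is described by 41 gene lists, each with its count and its median over the members tested. Counts of 0 to 2 in 1 direction changed by up to 2 genes without single libraries, and larger counts that changed by over 1.5 times are named with the library. Of 1122 entries 13 had no match in the table, and members below the filter are not counted. Counts are to be read beside the shares of all genes: 21.5% rose and 19.2% fell. A positive difference was called for 11.4% of all genes and a negative one for 7.15%. Genes named in a list are those of largest change, by the rule given with the processing.

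The targets of p53 held many of the largest rises. Of 40 genes in the list 34 rose and 1 fell (median log2 fold change 1.52, against 0.012 over all genes and a background of 21.5% of genes that rose). Cdkn1a, the inhibitor of cyclin-dependent kinases that arrests the cell cycle (chr17:29090976-29100727, build mm10), had 165, 153 and 207 CPM in the combination mice and 3.34, 2.76 and 1.81 CPM in the dichloroacetate mice. Every combination mouse exceeded every dichloroacetate mouse by a wide margin (log2 fold change 6.02, SE 0.21, adjusted p = 2.94e-10). Without dichloroacetate the same gene had 377 ± 39.9 CPM with cisplatin alone and 3.74 ± 0.852 CPM with saline (SD, n = 3). The difference of the responses was -0.63, SE 0.27, adjusted p = 0.123, and it passed the threshold without dichloroacetate replicate 3 (-0.82, adjusted p = 0.033) or without saline replicate 1 (-0.84, adjusted p = 0.0447). Ccng1, a p53-induced cyclin and among the 6 genes that gained most CPM, had 973, 987 and 1018 CPM in the combination mice and 243, 212 and 203 CPM in the dichloroacetate mice (log2 fold change 2.18, SE 0.07, adjusted p = 1.38e-10). Mdm2, the ubiquitin ligase that degrades p53, had 135, 129 and 138 CPM in the combination mice and 47.6, 45.4 and 45.2 CPM in the dichloroacetate mice (log2 fold change 1.54, SE 0.07, adjusted p = 4.69e-09). Its response was smaller than the 2.28 measured without dichloroacetate (difference -0.74, SE 0.102, adjusted p = 0.000421). Phlda3, an inhibitor of AKT, had 65.6, 61.7 and 71.1 CPM in the combination mice and 3.74, 2.59 and 2.02 CPM in the dichloroacetate mice (log2 fold change 4.53, SE 0.15, adjusted p = 2.26e-10). Eda2r, a member of the TNF receptor family, rose by 4.99 (SE 0.14), and Psrc1 and Gtse1, a pair of spindle proteins, by 4.91 (SE 0.18) and 4.38 (SE 0.25). The member that fell was Rrm2b, the p53-inducible subunit of ribonucleotide reductase, from 36.03, 37.1 and 35.3 CPM to 27.6, 29.7 and 27.4 CPM (log2 fold change -0.35, SE 0.05, adjusted p = 9.29e-05). Within the list the difference was called negative for 22 members and positive for 2.

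Cdkn1a was the single p53 target whose promoter held a p53 element, and its sequence is shown because it had the largest rise of the list. RefSeq promoters (build GRCm38.p6) were searched on both strands over the 250 bases before the start, for 2 decamers with 0 to 13 bases between them. The element was found in 1 of 31 p53 targets with a promoter in the table and in 6 of 12453 genes tested (0.05%). The line below is chr17:29090846-29090978, plus strand, with the letters that matched in capitals at positions -73 to -42 from this RefSeq start. The search allowed no mismatch to the decamer RRRCWWGYYY (R a purine, W A or T, Y a pyrimidine). The 10 bases directly after the capitals miss this decamer in their first letter alone. The capitals therefore need not bound the site that p53 uses.
Cdkn1a: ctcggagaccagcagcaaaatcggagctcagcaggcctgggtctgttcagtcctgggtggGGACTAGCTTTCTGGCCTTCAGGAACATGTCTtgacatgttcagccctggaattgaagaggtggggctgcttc
A match is a description of the letters, not a measurement of binding, and known p53 sites of many targets lie outside this window.

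Other genes joined them among the 12 largest rises. The uncharacterised 1700007K13Rik had the steepest, with 19.9, 20.0 and 20.3 CPM in the combination mice and 0.349, 0.199 and 0.135 CPM in the dichloroacetate mice (log2 fold change 6.34, SE 0.16, adjusted p = 2.43e-11). The combination mice were nearly equal for this gene and the groups were far apart. Gstp3, a glutathione transferase, rose by 5.27 (SE 0.32), Saa4, a serum amyloid protein, by 5.23 (SE 0.18), and Aqp8, a water channel, by 4.15 (SE 0.24). Inka2 rose by 5.05 (SE 0.14), Ddias, a suppressor of apoptosis after DNA damage, by 4.57 (SE 0.203), and Ckap2, a spindle protein, by 4.26 (SE 0.197). Of these 7 genes, the difference between the responses with and without dichloroacetate was called for Ckap2 alone (-1.03, SE 0.32, adjusted p = 0.0382).

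Several of the largest falls in nuclear genes were in long genes. Fhit (chr14:9550092-11162035), a tumour suppressor gene at a common fragile site, had 0.163, 0.217 and 0.274 CPM in the combination mice and 4.49, 5.17 and 5.36 CPM in the dichloroacetate mice (log2 fold change -4.49, SE 0.201, adjusted p = 2.72e-09). The highest combination value, 0.274 CPM, was far below the lowest dichloroacetate value, 4.49 CPM. Trappc9 (chr15:72589620-73061204), which encodes a subunit of a vesicle tethering complex, had 5.98, 4.97 and 4.93 CPM in the combination mice and 59.02, 60.1 and 67.99 CPM in the dichloroacetate mice (log2 fold change -3.56, SE 0.08, adjusted p = 1.73e-11). Bbs9, a component of the ciliary BBSome, fell to 1.24, 1.28 and 1.25 CPM from 14.3, 14.1 and 14.1 CPM (log2 fold change -3.49, SE 0.11, adjusted p = 1.78e-10). Sorcs1, a sorting receptor, and Kcnh1, a potassium channel, fell by 4.12 and 3.29 on the log2 scale. Ugt2a3, a glucuronosyltransferase, had 2.21, 2.69 and 2.89 CPM in the combination mice and 51.4, 23.1 and 7.55 CPM in the dichloroacetate mice, so that the dichloroacetate mice themselves differed widely (log2 fold change -3.41 (SE 0.72)). Gm24951, a small noncoding RNA, varied still more among them, from 0.472 to 9.49 CPM (log2 fold change -4.59 (SE 0.897)).

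Across all genes the response followed genomic span, the distance from a gene's first to its last base in GENCODE M21. The 5469 genes of up to 5 kb had a median of 0.08, and the medians of the classes from 5 to 20, 20 to 50, 50 to 100 and 100 to 200 kb were 0.08, 0.004, -0.06 and -0.20. The 538 genes of 200 to 400 kb had a median of -0.59, with 60.2% called lower. The 243 genes over 400 kb had a median of -1.03; 70.8% fell and 3.7% rose, against 19.2% and 21.5% of all genes. Median responses without dichloroacetate in the same classes ran from 0.12 for the shortest to -0.97 and -1.40 for the longest pair. Dichloroacetate alone, in a comparison with saline that shares the dichloroacetate mice, had medians between -0.03 and 0.01 in every class. Genes are not replicates, and no test was made of the trend. Ptprd, a receptor phosphatase of 2271 kb, had 35.9, 38.2 and 33.2 CPM in the combination and 96.9, 99.3 and 101 CPM in the dichloroacetate mice (log2 fold change -1.47, SE 0.09). Macrod2, of 1998 kb, had 56.3, 47.5 and 61.2 CPM against 170.5, 171 and 195 CPM (-1.70, SE 0.11). Long genes did not all fall: Auts2, of 1106 kb, rose from 18.8, 21.5 and 21.2 CPM to 24.5, 25.8 and 28.1 CPM (0.35, SE 0.08). These 3 were picked after their values were seen.

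**Figure D2:**
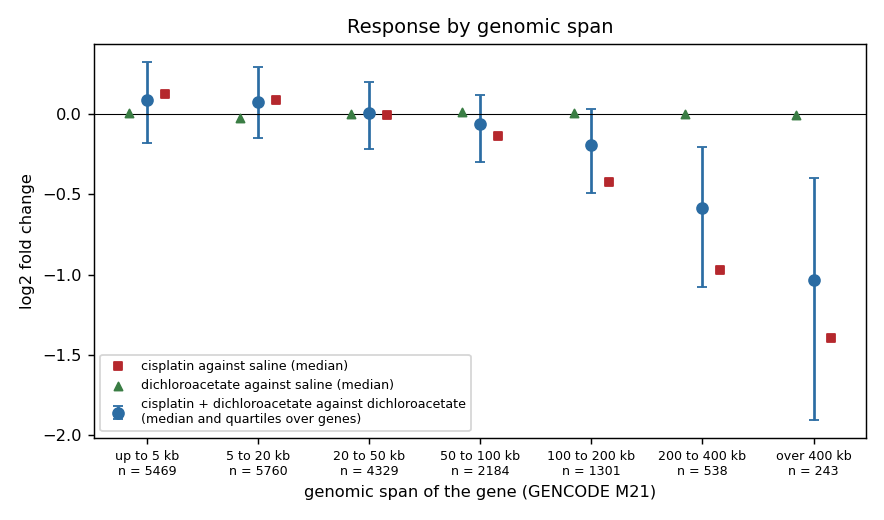
Median log2 fold change of genes grouped by genomic span (x axis, number of genes under each class) for the combination against dichloroacetate (circles, whiskers from the lower to the upper quartile of genes), cisplatin against saline (squares) and dichloroacetate against saline (triangles). The first 2 fall with span, to -1.03 and -1.40 over 400 kb, and the third stays between -0.03 and 0.01.

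Of 31 genes of tubular injury 16 rose and 1 fell (median 0.47). Krt20, a keratin of injured tubules, had 4.23, 4.102 and 5.12 CPM in the combination mice and 0.227, 0.497 and 0.02696 CPM in the dichloroacetate mice (log2 fold change 4.13, SE 0.31, adjusted p = 3.33e-07). It had 43.8 ± 3.62 CPM with cisplatin alone and 0.121 ± 0.0477 CPM with saline, and its difference of -4.33, SE 0.65, adjusted p = 0.000678 was the largest among genes with a smaller response and at least 5 CPM in 1 group. Havcr1, which encodes the injury marker KIM-1 (chr11:46735080-46779578), had 72.8, 96.4 and 77.6 CPM in the combination mice and 54.98, 51.8 and 41.97 CPM in the dichloroacetate mice. All combination mice exceeded all dichloroacetate mice, and the nearest values were 72.8 and 55.0 CPM (log2 fold change 0.73, SE 0.11, adjusted p = 0.000164); without dichloroacetate its log2 fold change was 2.16 (difference -1.43, SE 0.16, adjusted p = 9.93e-05). Lcn2, the iron-binding marker NGAL, had 4.52, 5.41 and 4.08 CPM in the combination mice and 1.28, 1.12 and 0.485 CPM in the dichloroacetate mice (log2 fold change 2.24, SE 0.29, adjusted p = 4.05e-05), and its difference was not called (-0.59, adjusted p = 0.369). Tnfrsf12a, the receptor of the cytokine TWEAK, rose from 18.1, 14.4 and 14.3 CPM to 70.5, 66.9 and 90.1 CPM. Sox9, a factor of tubule repair, had 0.748, 0.516 and 0.518 CPM in the combination mice and 0.315, 0.373 and 0.485 CPM in the dichloroacetate mice and did not pass the test (adjusted p = 0.138). Anxa1, an annexin that limits inflammation, was the member that fell (-0.38 (SE 0.13)), and its call was lost without any 1 of combination replicates 1, 2 and 3 and dichloroacetate replicates 1 and 2. Negative differences were called for 12 members and positive ones for 2.

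Transporters of the proximal tubule fell in 31 of 47 cases and rose in 7 (median -0.45). Slc34a1, the main sodium phosphate cotransporter (chr13:55398187-55415592), had 1515, 1384 and 1563 CPM in the combination mice and 3259.6, 3267 and 3548 CPM in the dichloroacetate mice. The groups were separated by a gap wider than the spread within either (log2 fold change -1.18, SE 0.07, adjusted p = 2.47e-08). Slc22a28 and Slc22a30, a pair of organic anion transporters close in sequence, fell by 1.88 and 1.86 on the log2 scale. Slc22a7, an organic anion transporter, had 36.2, 30.4 and 36.6 CPM in the combination mice and 178, 95.3 and 79.6 CPM in the dichloroacetate mice (log2 fold change -1.78, SE 0.305, adjusted p = 0.000424). Among the members that rose, Slc13a1, the sodium sulfate cotransporter, had 672, 583 and 815 CPM in the combination mice and 202, 209 and 231 CPM in the dichloroacetate mice (log2 fold change 1.69, SE 0.12, adjusted p = 1.49e-07), and Slc3a2, the heavy chain of amino acid exchangers, had 182, 179 and 202 CPM in the combination mice and 98.3, 97.8 and 93.3 CPM in the dichloroacetate mice (log2 fold change 0.96, SE 0.08, adjusted p = 4.49e-07). Slc13a1 rose more under dichloroacetate than without it (difference 0.74, SE 0.16, adjusted p = 0.00712), and Slc3a2 rose less (difference -0.75, SE 0.11, adjusted p = 0.000488). For 38 of the 47 transporters the difference was positive and for 1 negative, against 11.4% and 7.15% of all genes.

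Nuclear factors and hormone receptors of tubule identity fell in 13 of 27 cases and rose in 1 (median -0.16, against -0.80 without dichloroacetate). Cux1 fell from 135, 129.8 and 135 CPM to 68.6, 63.8 and 69.8 CPM, Esrrg, a receptor that drives mitochondrial genes, from 65.96, 63.5 and 64.9 CPM to 31.9, 35.1 and 31.95 CPM, and Ghr, the growth hormone receptor, from 736, 720.0 and 705 CPM to 368, 367 and 368 CPM. Cux1, Esrrg and Ghr are long genes, of 319356, 606095 and 265733 bases. Of all genes of 200 to 400 kb 60.2% fell, and of those over 400 kb 70.8%. Pax2, a developmental factor, rose by 0.43 (SE 0.11). Ppargc1a, a coactivator of mitochondrial biogenesis, had 61.98, 64.2 and 55.1 CPM in the combination mice and 59.5, 77.9 and 61.9 CPM in the dichloroacetate mice; the groups overlapped and it did not pass the test (adjusted p = 0.311), while its log2 fold change without dichloroacetate was -0.796 (difference 0.66, SE 0.14, adjusted p = 0.00631). Kl, which encodes the phosphate hormone coreceptor Klotho, had 327, 305 and 352 CPM in the combination mice and 571, 498 and 584 CPM in the dichloroacetate mice (log2 fold change -0.75, SE 0.07, adjusted p = 3.71e-06). A positive difference was called for 15 of the 27 and a negative one for none.

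The genes that carry, export or activate cisplatin moved in both directions, with 11 of 19 higher and 6 lower (median 0.27). The uptake transporter Slc22a2 had 253, 224 and 269 CPM in the combination mice and 349, 317 and 349.7 CPM in the dichloroacetate mice (log2 fold change -0.45, SE 0.08, adjusted p = 0.000512). Slc47a1, the proton exchanger that passes organic cations into urine, had 605, 583 and 651 CPM in the combination mice and 747, 763 and 844 CPM in the dichloroacetate mice (log2 fold change -0.36, SE 0.07, adjusted p = 0.000717). Both fell in every combination mouse and both fell less than without dichloroacetate (differences 0.47 and 0.55, adjusted p = 0.0101 and 0.0014). Efflux pumps rose: Abcb1b had 51.1, 59.6 and 53.3 CPM in the combination mice and 8.07, 10.2 and 13.6 CPM in the dichloroacetate mice (log2 fold change 2.38, SE 0.14, adjusted p = 2.4e-08), and its near copy Abcb1a rose by 1.41 (SE 0.11). The metal-binding protein gene Mt2 rose from 13.6, 17.6 and 17.3 CPM to 48.9, 54.7 and 48.5 CPM. Of the enzymes that turn platinum conjugates into reactive thiols, Ggt1 had 711, 674 and 722 CPM in the combination mice and 1143, 1123 and 1211 CPM in the dichloroacetate mice (log2 fold change -0.72, SE 0.06, adjusted p = 1.09e-06), and Anpep and Kyat3 fell by 0.45 and 0.50 on the log2 scale.

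**Figure D3:**
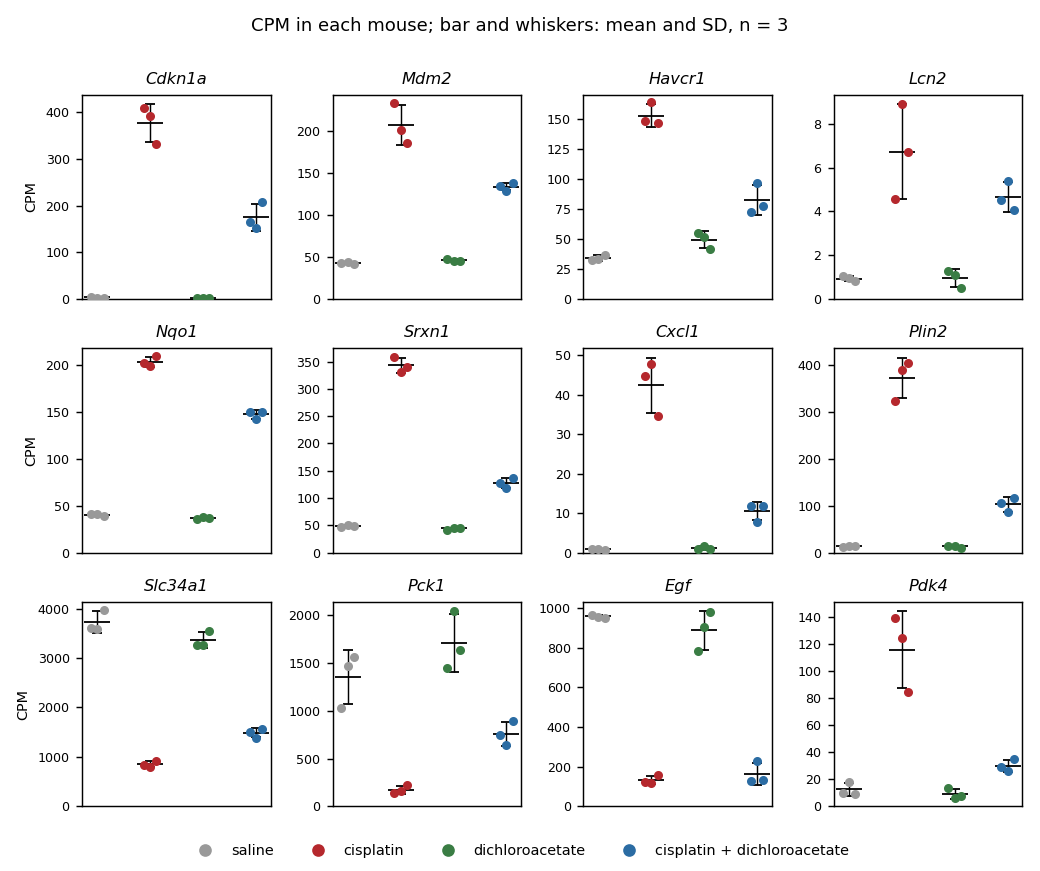
CPM (y axes, each from 0) of 12 genes in each of the 3 mice of the saline, cisplatin, dichloroacetate and combination groups, in that order from left to right; bars and whiskers give the mean and SD. In Cdkn1a, Mdm2, Havcr1, Nqo1, Srxn1, Cxcl1 and Plin2 the combination mice lie above the dichloroacetate mice and below the cisplatin mice; in Slc34a1 and Pck1 they lie below the dichloroacetate mice and above the cisplatin mice.

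Genes of fatty acid oxidation and PPARA, the receptor that senses fatty acids, were split: 20 of 45 rose and 11 fell (median 0.24, and 0.16 without combination replicate 3). Cyp4a14, a fatty acid omega-hydroxylase and PPARA target, had 67.6, 64.4 and 52.4 CPM in the combination mice and 5.59, 5.199 and 7.31 CPM in the dichloroacetate mice (log2 fold change 3.36, SE 0.41, adjusted p = 2.53e-05). Its relative Cyp4a10 was among the 6 genes that gained most CPM, from 198, 187 and 196 to 669, 679 and 641 CPM. Plin2, the coat protein of lipid droplets, had 106, 86.2 and 117 CPM in the combination mice and 14.8, 14.1 and 11.1 CPM in the dichloroacetate mice (log2 fold change 2.94, SE 0.13, adjusted p = 2.76e-09), a smaller response than without dichloroacetate, where it had 372 ± 43.1 CPM with cisplatin alone and 13.98 ± 0.6599 CPM with saline (difference -1.79, SE 0.18, adjusted p = 6.98e-05). Acat1, a thiolase, fell from 887, 864 and 927 CPM to 417, 407 and 429.8 CPM, Acadm, a mitochondrial acyl-CoA dehydrogenase, from 1016, 904 and 901 CPM to 527, 523 and 516 CPM, and Cd36, a fatty acid transporter, from 655, 569.8 and 633 CPM to 318, 287 and 342 CPM. Cpt1a, which admits fatty acids to mitochondria, fell by 0.31 on the log2 scale (adjusted p = 0.00319). A positive difference was called for 19 of 45 and a negative one for 2.

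Pyruvate dehydrogenase and its regulators fell in 11 of 14 cases, and 1 rose (median -0.27). The member that rose was Pdk4, the kinase induced by fasting, with 29.3, 26.03 and 34.8 CPM in the combination mice and 13.3, 6.17 and 7.55 CPM in the dichloroacetate mice (log2 fold change 1.71, SE 0.29, adjusted p = 0.000394). Its response was smaller than the 3.18 seen without dichloroacetate (difference -1.47, SE 0.399, adjusted p = 0.0212), a call lost without cisplatin replicate 1 or 2, combination replicate 2 or dichloroacetate replicate 1 (-1.05 and adjusted p = 0.0767 without the last). The other kinases fell. Pdk2 had 149, 147 and 148 CPM in the combination mice and 189, 229.6 and 227 CPM in the dichloroacetate mice (log2 fold change -0.54, SE 0.07, adjusted p = 5.97e-05). Pdk3 had 33.7, 32.9 and 35.2 CPM in the combination mice and 57.3, 54.8 and 55.4 CPM in the dichloroacetate mice (log2 fold change -0.72, SE 0.06, adjusted p = 1.34e-06). Pdk1 had 11.5, 12.2 and 10.3 CPM in the combination mice and 12.5, 15.1 and 13.4 CPM in the dichloroacetate mice (log2 fold change -0.27, SE 0.099, adjusted p = 0.0463), and its call was lost without 1 of several libraries (adjusted p up to 0.185, without dichloroacetate replicate 2). Pdp2, a phosphatase that reactivates the complex, fell by 0.64 on the log2 scale, and the catalytic subunit gene Pdha1 had 349, 336 and 354 CPM in the combination mice and 463, 475 and 489.7 CPM in the dichloroacetate mice (log2 fold change -0.46, SE 0.05, adjusted p = 1.18e-05). Gstz1, which degrades dichloroacetate, fell from 295, 314 and 337 CPM to 236, 225 and 241 CPM, less than without dichloroacetate (difference 0.699, SE 0.098, adjusted p = 0.000467).

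The citric acid cycle list fell in 16 of 21 cases, with 1 rise (median -0.32). Suclg2, a subunit of succinyl-CoA synthetase, fell by 1.05 on the log2 scale, Idh2, the mitochondrial isocitrate dehydrogenase, by 0.84, and the cytosolic aconitase gene Aco1 by 0.59. Suclg2 spans 245792 bases, and 60.2% of all genes of 200 to 400 kb fell. Idh1, the cytosolic isocitrate dehydrogenase, rose from 431, 411 and 386 CPM to 528, 491 and 546 CPM, whereas its log2 fold change without dichloroacetate was -0.34 (difference 0.69, SE 0.095, adjusted p = 0.000423). Of 74 nuclear-encoded respiratory chain genes 46 fell and none rose (median -0.26); 3 examples are Cycs, the electron carrier cytochrome c (-0.65 (SE 0.08)), and the complex I subunits Ndufs4 and Ndufs1 (-0.61 (SE 0.08) and -0.59 (SE 0.06)). All 13 mRNAs encoded by the mitochondrial genome fell (median -0.56), and the difference was called for none of them (edgeR interaction test; 3 had an unadjusted p below 0.05, and DESeq2 called none). Cytochrome b, mt-Cytb, had 8548, 9167 and 8806 CPM in the combination mice and 15449, 15762 and 14945 CPM in the dichloroacetate mice (log2 fold change -0.799, SE 0.06, adjusted p = 1.72e-07). Among the largest losses of CPM were also mt-Co1, from 45339, 46016 and 45041 CPM to 35541, 36282 and 35962 CPM, and mt-Atp6, mt-Nd4 and mt-Co3, which fell by 0.55, 0.71 and 0.48 on the log2 scale. Of the 22 mitochondrial transfer RNAs, which are cut out of the same long transcripts, 13 fell and none rose (edgeR; median -2.26). These short RNAs were uneven within the dichloroacetate group. mt-Td had 2.34, 2.64 and 2.92 CPM in the combination mice and 397, 441 and 43.8 CPM in the dichloroacetate mice (log2 fold change -6.80, SE 1.37, adjusted p = 0.00139), and mt-Tk had 6.14, 6.79 and 10.4 CPM in the combination mice and 406, 405 and 23.2 CPM in the dichloroacetate mice (log2 fold change -5.16, SE 1.02, adjusted p = 0.00126). Dichloroacetate replicate 3 was low for both, and replicate 2 was low for mt-Tg and mt-Th, which had 93.7, 7.84 and 138 CPM and 147, 46.3 and 154 CPM in the dichloroacetate mice and 4.84, 4.54 and 7.25 CPM and 8.84, 9.43 and 13.7 CPM in the combination mice. Summed over the 22, the level was 1753.5 to 1888 CPM in the combination and 3489 to 5842 CPM in the dichloroacetate mice.

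In the list of gluconeogenesis and fructose use 13 of 20 fell and 4 rose (median -0.33). Pck1, which commits carbon to glucose (chr2:173153048-173159273), had 743, 641 and 891 CPM in the combination mice and 1441, 2038 and 1634 CPM in the dichloroacetate mice (log2 fold change -1.17, SE 0.19, adjusted p = 0.000316). The groups did not overlap, and the fall was smaller than without dichloroacetate (log2 fold change -2.98, difference 1.82, SE 0.27, adjusted p = 0.000697). Pcx, pyruvate carboxylase, fell from 388, 412 and 455 CPM to 163, 148 and 170.1 CPM, and Gk, glycerol kinase, from 744, 768 and 869 CPM to 360.4, 365 and 408 CPM. Fbp2, a second fructose bisphosphatase, rose from 11.1, 11.6 and 12.8 CPM to 50.8, 55.1 and 56.5 CPM, and Gpt, an alanine aminotransferase, by 1.25 (SE 0.11). Of 23 glycolysis genes 5 rose and 4 fell (median 0.06, and 0.01 without combination replicate 2 or 0.03 without dichloroacetate replicate 3), shares of 21.7% and 17.4% that are near the 21.5% and 19.2% of all genes; the count that fell was 2 without combination replicate 1 or dichloroacetate replicate 2, and 1 without combination replicate 2 or dichloroacetate replicate 3. Slc16a1, the lactate carrier MCT1, rose by 0.86 (SE 0.16), Aldoa, aldolase, by 0.45 (SE 0.05), and Pgam1 by 0.33 (SE 0.07). Pgk1 fell by 0.24 on the log2 scale. The difference was positive for 13 genes of glucose synthesis and negative for none, and positive for 1 and negative for 1 in glycolysis.

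**Figure D4:**
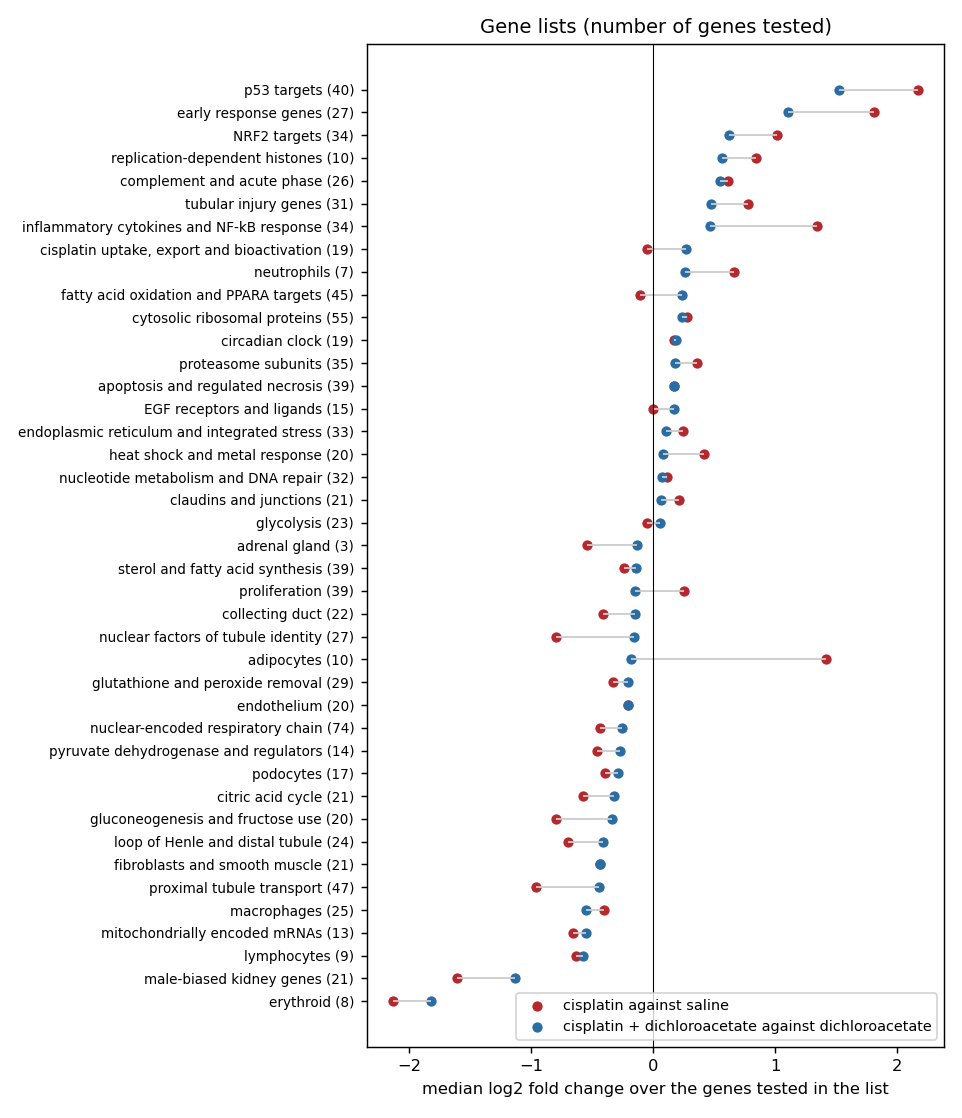
Median log2 fold change over the genes tested in each of 41 gene lists (number in brackets), for cisplatin against saline and for the combination against dichloroacetate; a grey line joins the medians of a list. The largest positive medians under dichloroacetate are those of p53 targets (1.52) and early response genes (1.11), and the most negative that of erythroid genes (-1.82, and -1.17 without dichloroacetate replicate 1), followed by male-biased kidney genes (-1.13).

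The antioxidant genes driven by NRF2 rose in 27 of 34 cases and fell in 1 (median 0.62). Nqo1, a quinone reductase (chr8:107388225-107403206), had 149.6, 142 and 150.4 CPM in the combination mice and 35.6, 38.2 and 36.6 CPM in the dichloroacetate mice. Mice within a group differed by little and the groups by 4-fold (log2 fold change 2.001, SE 0.05, adjusted p = 2.61e-11). Srxn1, sulfiredoxin, had 128, 119 and 136 CPM in the combination mice and 42.4, 45.3 and 45.5 CPM in the dichloroacetate mice (log2 fold change 1.53, SE 0.06, adjusted p = 1.18e-09), and its rise was smaller than without dichloroacetate (difference -1.28, SE 0.09, adjusted p = 9.37e-06). Hmox1, haem oxygenase, had 39.6, 42.8 and 54.6 CPM in the combination mice and 21.04, 19.5 and 18.5 CPM in the dichloroacetate mice (log2 fold change 1.21, SE 0.11, adjusted p = 1.4e-06), also with a smaller rise (difference -1.66, SE 0.15, adjusted p = 5.83e-05). The glutathione transferases Gsta1 and Gsta2 rose by 2.69 (SE 0.196) and 2.004 (SE 0.17); they are nearly identical in sequence, so their reads may be shared. Me1, malic enzyme, was the member that fell (-0.66 (SE 0.09)). The iron store subunit Ftl1 rose from 1243, 1166 and 1211 CPM to 2542, 2338 and 2701 CPM. The difference was negative for 13 members and positive for 1.

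Of 29 NRF2 targets with a RefSeq promoter, 8 held the antioxidant response element TGACNNNGC, searched on both strands in the 250 bases before the start (27.6%, against 13.7% of 12453 genes tested). The 4 printed here are from targets that rose, and they show how the element lies in its promoter (build GRCm38.p6, element in capitals, which in reverse orientation begins with GC). Gsta3, a glutathione transferase (log2 fold change 1.95), is chr1:21240404-21240532 on the plus strand; Txnrd1, thioredoxin reductase (1.33), is chr10:82859054-82859182 on the plus strand. G6pdx, which makes NADPH (1.02), is chrX:74428881-74428997 on the minus strand, and Abcc2, an efflux pump (0.94), is chr19:43782150-43782278 on the plus strand.
Gsta3: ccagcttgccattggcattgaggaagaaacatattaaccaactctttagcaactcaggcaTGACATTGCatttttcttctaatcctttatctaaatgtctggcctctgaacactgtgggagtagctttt
Txnrd1: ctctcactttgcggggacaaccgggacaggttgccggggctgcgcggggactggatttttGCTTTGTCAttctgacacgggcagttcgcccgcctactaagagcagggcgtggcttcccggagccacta
G6pdx: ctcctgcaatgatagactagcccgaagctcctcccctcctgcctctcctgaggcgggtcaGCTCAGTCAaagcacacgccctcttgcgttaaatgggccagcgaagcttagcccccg
Abcc2: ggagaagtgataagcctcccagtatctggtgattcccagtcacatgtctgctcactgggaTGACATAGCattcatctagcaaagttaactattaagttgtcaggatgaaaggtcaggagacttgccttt
The element was also found in Abcc4, Prdx1 and Ugdh, which rose, and in Gclm, which was not called (log2 fold change 0.006). The letters say nothing about whether the factor was bound in these kidneys.

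Enzymes of glutathione use and peroxide removal fell in 15 of 29 cases and rose in 8 (median -0.21). Mgst1, a membrane glutathione transferase, had 162, 173 and 181 CPM in the combination mice and 31.0, 36.4 and 38.5 CPM in the dichloroacetate mice (log2 fold change 2.29, SE 0.08, adjusted p = 3.46e-10). Gstt3 and Gsto1 rose by 0.89 (SE 0.07) and 0.75 (SE 0.06). Sod3, the extracellular superoxide dismutase, fell from 405, 396 and 381 CPM to 231, 209 and 236 CPM and Ggct by 0.71 on the log2 scale.

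Early response genes, transcribed within minutes of a stimulus, rose in 20 of 27 cases and fell in none at the threshold (median 1.11). Btg2, an antiproliferative gene that p53 also induces, had 65.4, 66.6 and 80.3 CPM in the combination mice and 13.02, 13.8 and 13.8 CPM in the dichloroacetate mice (log2 fold change 2.39, SE 0.14, adjusted p = 2.76e-08). Maff, a small bZIP factor, rose by 2.13 (SE 0.24), Fos by 2.09 (SE 0.41) and Atf3 by 1.603 (SE 0.33), the last 2 from under 1.5 CPM. Fosl1, an AP-1 subunit, had 1.53, 1.52 and 1.401 CPM in the combination mice and 0.559, 0.597 and 0.647 CPM in the dichloroacetate mice (log2 fold change 1.31, SE 0.15, adjusted p = 1.21e-05). Its response was 4.55 without dichloroacetate, and the difference (-3.24, SE 0.201, adjusted p = 9.22e-06) was the next largest by the same rule. In all 16 of 27 differences were called negative and none positive.

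Inflammatory genes rose in 20 of 34 cases and fell in 2 (median 0.47, against 1.34 without dichloroacetate). Cxcl1, a chemokine that attracts neutrophils (chr5:90891241-90893115), had 11.9, 7.85 and 11.9 CPM in the combination mice and 0.944, 1.77 and 0.944 CPM in the dichloroacetate mice (log2 fold change 3.13, SE 0.24, adjusted p = 3.02e-07), with 42.4 ± 6.98 CPM with cisplatin alone and 0.839 ± 0.131 CPM with saline in the other groups (difference -2.503, SE 0.36, adjusted p = 0.000544). C3, the central complement protein, had 80.5, 86.7 and 93.5 CPM in the combination mice and 18.5, 12.9 and 12.4 CPM in the dichloroacetate mice (log2 fold change 2.56, SE 0.16, adjusted p = 6.27e-08), and Nfkbiz, a nuclear regulator of NF-kB, rose by 1.26 (SE 0.11). Cxcl12, a chemokine of stromal cells, fell from 169, 182 and 126 CPM to 72.7, 101 and 55.2 CPM. Cxcl10, an interferon-induced chemokine, had 2.93, 2.28 and 3.899 CPM in the combination mice and 2.18, 0.9203 and 0.8896 CPM in the dichloroacetate mice; the groups came close, and the adjusted p was 0.0468 and up to 0.179 without 1 library. Negative differences were called for 16 members and a positive one for 1. In the complement and acute phase list 12 of 26 rose and 1 fell (median 0.55), among them Serpina7, the thyroxine-binding globulin, by 4.36 (SE 0.22).

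Promoters of early response genes were searched for 3 elements. The CRE, TGACGTCA, occurred in 3 of 22 (13.6%, against 2.75% of the genes tested), the CArG box of serum response factor in 3 of 22 (13.6%, against 1.44%), and the AP-1 element TGANTCA in 0 of 22 (against 5.87%). The AP-1 element occurred in 2 of 22 tubular injury genes (9.09%). CRE occurred in 0 of 31 genes of endoplasmic reticulum stress, and the D-box TTATGNAA in 2 of 16 clock genes (12.5%, against 2.58%). Maff and Dusp5, a phosphatase of ERK (log2 fold change 1.28), are shown as risen genes with a CRE and a CArG box; they lie at chr15:79347431-79347519 and chr19:53529003-53529132, plus strand, with the element in capitals.
Maff: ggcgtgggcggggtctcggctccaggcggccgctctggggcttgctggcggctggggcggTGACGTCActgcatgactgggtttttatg
Dusp5: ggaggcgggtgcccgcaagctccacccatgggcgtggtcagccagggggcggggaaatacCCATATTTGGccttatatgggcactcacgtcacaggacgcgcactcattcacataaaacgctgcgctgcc
In Dusp5 a second CArG box directly follows the capitals.

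Of 33 genes of endoplasmic reticulum stress and the integrated stress response 12 rose and 10 fell (36.4% and 30.3%; median 0.11, and 0.06 without dichloroacetate replicate 2). Sesn2, a p53 and ATF4 target that restrains mTORC1, had 97.02, 92.05 and 105 CPM in the combination mice and 34.5, 34.6 and 28.1 CPM in the dichloroacetate mice (log2 fold change 1.596, SE 0.09, adjusted p = 2.21e-08). Psat1 and Mthfd2, enzymes of serine and folate metabolism, rose by 1.25 (SE 0.18) and 1.04 (SE 0.15), and Shmt2 fell by 0.58 on the log2 scale. The chaperone gene Hspa5 fell from 423, 452 and 549 CPM to 293, 305 and 301 CPM and Herpud1 from 209, 253 and 289.9 CPM to 178, 183 and 178 CPM. Of 20 heat shock and metal response genes 7 rose and 2 fell (median 0.08, and 0.04 without dichloroacetate replicate 1 or 2 and 0.15 without replicate 3; 4 fell without saline replicate 1). The small chaperone Cryab rose from 56.4, 63.01 and 39.2 CPM to 169.8, 184 and 129.6 CPM, and the metallothionein Mt1 from 42.3, 50.6 and 44.2 CPM to 89.5, 102 and 84.2 CPM. Hspd1 and Dnaja1 fell by 0.48 and 0.65 on the log2 scale.

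Genes of DNA repair and nucleotide metabolism moved little as a list: 11 of 32 rose and 4 fell (median 0.07, and 0.11 without combination replicate 1). Polk, a polymerase that copies past damaged bases, had 32.05, 33.4 and 31.2 CPM in the combination mice and 11.9, 12.4 and 11.2 CPM in the dichloroacetate mice (log2 fold change 1.44, SE 0.08, adjusted p = 1.89e-08). Rev1, of the same process, rose by 0.59 (SE 0.06) and the mismatch repair gene Msh6 by 0.63 (SE 0.07). Fancc, of the crosslink repair pathway, fell from 4.25, 4.03 and 3.69 CPM to 1.85, 2.58 and 1.55 CPM. It spans 212236 bases, and 60.2% of all genes of 200 to 400 kb fell. Of 39 proliferation genes 6 rose and 12 fell (15.4% and 30.8%), with a median of -0.15, against 0.25 without dichloroacetate. That median was -0.25 without combination replicate 2, -0.08 without dichloroacetate replicate 1 and -0.26 without dichloroacetate replicate 3. Mki67, the marker of cycling cells, had 1.04, 1.03 and 1.19 CPM in the combination mice and 3.11, 2.81 and 1.54 CPM in the dichloroacetate mice (log2 fold change -1.21, SE 0.26, adjusted p = 0.00208), Cenpe, a kinetochore motor, fell by 1.86 on the log2 scale, and Ccnd1, cyclin D1, from 208, 223 and 192 CPM to 134, 127 and 122 CPM. Mcm2, a replication licensing factor, rose by 0.57 (SE 0.11). Of 39 genes of apoptosis and regulated necrosis 18 rose and 3 fell (median 0.17). Both protectors and effectors were among them: the antiapoptotic Bcl2l1 had 171, 163 and 180.2 CPM in the combination mice and 76.6, 89.2 and 84.8 CPM in the dichloroacetate mice (log2 fold change 1.04, SE 0.06, adjusted p = 3.68e-08), the proapoptotic Bcl2l11 rose by 0.902 (SE 0.13), and Acsl4, an enzyme that favours ferroptosis, by 1.06 (SE 0.096). Bcl2 fell by 0.66 on the log2 scale, and Tfrc, the transferrin receptor, by 0.96.

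Clock genes rose in 5 of 19 cases (26.3%) and fell in 6 (31.6%), with a median of 0.19 that was 0.08 without combination replicate 3 or dichloroacetate replicate 2 and 0.09 without dichloroacetate replicate 1. The count that rose was 8 without dichloroacetate replicate 3, and the count that fell was 3 without combination replicate 1. Arntl, the core activator BMAL1, had 10.6, 8.26 and 8.59 CPM in the combination mice and 3.62, 1.89 and 1.43 CPM in the dichloroacetate mice (log2 fold change 1.94, SE 0.35, adjusted p = 0.000642), and its partner Npas2 rose by 1.93 (SE 0.42). The outputs Hlf and Tef fell by 0.67 each on the log2 scale. Cry1, a repressor of the clock, rose by 0.67 (SE 0.096), less than without dichloroacetate (2.54). The hour of sacrifice is not in the labels of the dichloroacetate mice, so treatment and time of day cannot be told apart here. Of 39 genes of sterol and fatty acid synthesis 17 fell and 6 rose (median -0.14, and -0.22 without combination replicate 1 or -0.21 without dichloroacetate replicate 1): Cyp51 fell from 245, 233 and 204 CPM to 59.8, 57.5 and 53.4 CPM, Idi1 from 153, 142 and 141 CPM to 52.8, 55.2 and 55.1 CPM and the fatty acid synthesis enzyme Acaca from 22.7, 24.2 and 24.3 CPM to 11.5, 11.7 and 8.803 CPM.

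Of 15 genes for EGF receptors and ligands 4 rose and 3 fell, shares of 26.7% and 20% beside 21.5% and 19.2% of all genes (median 0.17; 2 rose without combination replicate 3 or without dichloroacetate replicate 1). Egf, made by the distal convoluted tubule (chr3:129677565-129755316), had 130.2, 228 and 134 CPM in the combination mice and 785, 903 and 979 CPM in the dichloroacetate mice, a 5.42-fold fall (log2 fold change -2.44, SE 0.18, adjusted p = 3.11e-07). Erbb4, a receptor of this family, fell by 1.68 on the log2 scale, while the receptor Egfr and the ligand Nrg1 rose by 0.51 (SE 0.08) and 2.07 (SE 0.11). Erbb4 and Nrg1 span 1075.9 and 1069.5 kb. Of all genes over 400 kb 70.8% fell and 3.7% rose. Of 21 claudin and junction genes 10 rose and 2 fell (median 0.06, and 0.03 without combination replicate 2, 0.12 without combination replicate 3 and 0.11 without dichloroacetate replicate 2), including rises of Cldn1 (1.16 (SE 0.103)) and Cldn4 (0.93 (SE 0.102)) and a fall of the kidney cadherin Cdh16 (-0.499 (SE 0.06)).

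Genes that are higher in male than in female mouse kidney fell in 18 of 21 cases, with 1 rise (median -1.13). Kap, an androgen-regulated proximal tubule protein, lost more CPM than any other gene, with 10016, 8855 and 11150.0 CPM in the combination mice and 25343, 23854 and 24125 CPM in the dichloroacetate mice (log2 fold change -1.29, SE 0.104, adjusted p = 5.75e-07). Cyp2e1 fell from 2232, 2300.5 and 3157 CPM to 562, 488 and 644 CPM, and Acsm3 from 709.5, 535 and 657 CPM to 159.7, 156 and 191 CPM. The member that rose was Hao2, a peroxisomal hydroxyacid oxidase, which is described with the opposite responses.

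Proteasome subunits rose in 23 of 35 cases and fell in none at the threshold (median 0.18), by small amounts: Psmb5 by 0.51 (SE 0.07), Psmb6 by 0.39 (SE 0.06) and Psmb3 by 0.38 (SE 0.06). Cytosolic ribosomal proteins rose in 43 of 55 cases and fell in 1 (median 0.23). That count was 25 without dichloroacetate replicate 1 and 28 without combination replicate 3. Rplp0 rose by 0.48 (SE 0.05) and Rpl19 by 0.52 (SE 0.06), and Rpl3 fell by 0.26 on the log2 scale. Of 10 replication-dependent histone genes, whose mRNAs lack a poly(A) tail, 8 rose (median 0.56), as did the elongation factor Eef1a1 (0.25) and the nuclear RNA Neat1 (0.50), both among the 6 genes that gained most CPM.

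Markers of other nephron segments and cell types were counted in the same way. Of 24 genes of the loop of Henle and distal tubule 16 fell and 1 rose (median -0.42). Slc12a3, the sodium chloride cotransporter of the distal convoluted tubule, had 80.8, 92.8 and 79.6 CPM in the combination mice and 362, 367 and 484 CPM in the dichloroacetate mice (log2 fold change -2.26, SE 0.13, adjusted p = 2.21e-08), Pvalb, of the same segment, fell by 1.56 on the log2 scale, and Umod, made by the thick ascending limb, had 904, 1226 and 802 CPM in the combination mice and 2069, 2112 and 1893 CPM in the dichloroacetate mice (log2 fold change -1.05, SE 0.13, adjusted p = 3.69e-05). Cldn16 rose by 0.55 (SE 0.10). Of 22 collecting duct genes 7 fell and none rose (median -0.15, and -0.08 without dichloroacetate replicate 2), such as the water channel Aqp3 (-0.804 (SE 0.06)) and the anion exchanger Slc4a1 (-0.67 (SE 0.13)). Slc4a1 is also a member of the erythroid list, so its fall is not particular to the collecting duct. Of 17 podocyte genes 9 fell and 1 rose (median -0.29), with Vegfa falling from 223, 215 and 233 CPM to 139, 136 and 128 CPM. Of 20 endothelial genes 3 fell, a share of 15% against 19.2% of all genes (median -0.21, and -0.10 without combination replicate 3 or -0.13 without dichloroacetate replicate 2). The VEGF receptor Kdr was one of them (-0.77 (SE 0.11)), and 5 fell without combination replicate 2 and 8 without dichloroacetate replicate 3.

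Some lists of immune, stromal and blood cell markers were uneven among the dichloroacetate mice. In replicates 1, 2 and 3 the macrophage genes summed to 329, 254.5 and 204 CPM. The erythroid genes summed to 722, 312 and 313 CPM. Of 25 macrophage genes 8 fell and 2 rose (median -0.55, and -0.20 without dichloroacetate replicate 1), and the count that fell was 4 without dichloroacetate replicate 1 and 13 without replicate 3. The 2 that rose, Cd68 and Cd14, had log2 fold changes of 1.43 (SE 0.26) and 1.33 (SE 0.16), while Mpeg1 fell by 0.77. Their summed level was 180.5 to 206 CPM in the combination and 204 to 329 CPM in the dichloroacetate mice. Neutrophil genes had 7 of 13 tested and 1 risen, Lcn2, which tubules also make; their sum was 24.0 to 27.8 CPM and 23.6 to 27.6 CPM in the 2 groups, and Elane, Camp and Ltf were below the filter. Lymphocyte genes had 9 of 18 tested and 3 lower (median -0.57), with 1 lower without any single combination replicate and none without dichloroacetate replicate 1. Of 21 genes of fibroblasts and smooth muscle 9 fell (median -0.44, and -0.66 without dichloroacetate replicate 2), and 5 without dichloroacetate replicate 1 or combination replicate 3. Col3a1, a collagen, had 13.5, 12.7 and 10.3 CPM in the combination mice and 48.3, 28.03 and 21.3 CPM in the dichloroacetate mice (log2 fold change -1.43, SE 0.26, adjusted p = 0.000681). Of 8 erythroid genes 6 fell (median -1.82, and -1.17 without dichloroacetate replicate 1). Hba-a2, a globin gene, had 22.7, 25.2 and 24.7 CPM in the combination mice and 146, 53.4 and 57.1 CPM in the dichloroacetate mice (log2 fold change -1.83, SE 0.41, adjusted p = 0.0029); without dichloroacetate replicate 1, the library with the highest erythroid and collagen values, its log2 fold change was -1.19. Of 10 adipocyte genes 1 rose and 2 fell, shares of 10% and 20% beside 21.5% and 19.2% of all genes. The sign of their median (-0.18) turned without combination replicate 2 (0.20) or 3 (0.12) or dichloroacetate replicate 1 (0.15). Lpl, a lipase also expressed by tubules, fell from 453, 344 and 423 CPM to 126, 124 and 124 CPM. Of 3 adrenal genes tested 1 fell, Hsd3b1, from 3.04, 2.96 and 1.24 CPM to 0.553, 0.625 and 0.335 CPM. The part of these cells in the other results was not tested.

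A small set of genes responded more under dichloroacetate than without it. The difference was called in the direction of the response for 92 rises and 26 falls. Cyp24a1, the enzyme that inactivates vitamin D (chr2:170482708-170497145), had 403, 252 and 391 CPM in the combination mice and 48.8, 42.9 and 63.7 CPM in the dichloroacetate mice (log2 fold change 2.75, SE 0.38, adjusted p = 6.44e-05). Its means were 348 ± 84.1 CPM with the combination, 51.8 ± 10.7 with dichloroacetate, 194 ± 16.7 with cisplatin and 112 ± 67.9 with saline (difference 1.96, SE 0.502, adjusted p = 0.0159). Abca1, the cholesterol exporter (chr4:53030787-53159895), had 59.5, 64.8 and 70.8 CPM in the combination mice and 24.3, 29.8 and 26.5 CPM in the dichloroacetate mice, and all 3 combination mice exceeded all 3 of each other group (difference 1.21, SE 0.19, adjusted p = 0.000841). Acnat2, a peroxisomal acyltransferase, had 153 ± 7.51 CPM with the combination, 55.6 ± 4.22 with dichloroacetate, 79.5 ± 21.4 with cisplatin and 63.9 ± 10.04 with saline (difference 1.14, SE 0.21, adjusted p = 0.0026). Rdh16f2, a retinol dehydrogenase, rose by 1.14 (SE 0.17), and the uncharacterised Gm12451 and 5730437C11Rik by 1.86 (SE 0.19) and 2.403 (SE 0.22). The dichloroacetate mice enter both this response and any comparison of dichloroacetate with saline. In that comparison the median log2 fold change was -0.21 for the 92 larger rises and 0.21 for the 26 larger falls. It was -0.16 and 0.17 for the rises and falls of opposite sign, and 0.02 and -0.01 for the smaller rises and falls. The part of these starting levels in the larger and opposite responses was not tested.

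**Figure D5:**
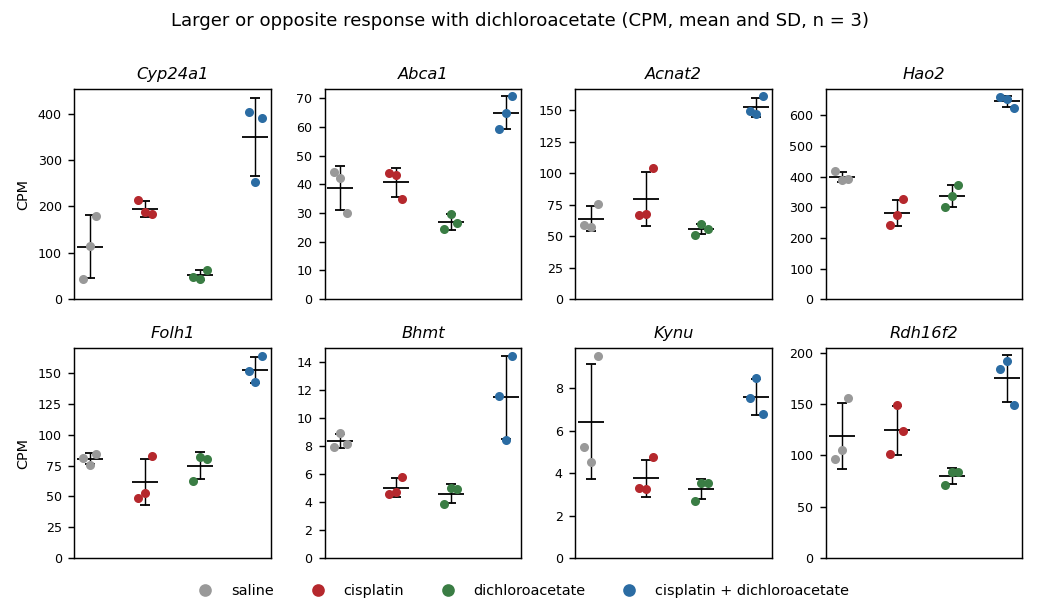
CPM (y axes, each from 0) of 8 genes with a larger or opposite response under dichloroacetate, in each of the 3 mice of the saline, cisplatin, dichloroacetate and combination groups, in that order from left to right; bars and whiskers give the mean and SD. In Cyp24a1, Abca1, Acnat2, Hao2 and Folh1 the 3 combination mice lie above all 9 others.

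For 256 genes the estimates with and without dichloroacetate had opposite signs, and in 108 of these the response without it was itself called. Hao2 (chr3:98874521-98893239) had 659, 653 and 625 CPM in the combination mice and 302, 336 and 373 CPM in the dichloroacetate mice (log2 fold change 0.94, SE 0.096, adjusted p = 5.02e-06), while without dichloroacetate it fell, with 282 ± 42.6 CPM with cisplatin alone and 400.1 ± 15.9 CPM with saline (difference 1.44, SE 0.14, adjusted p = 6.34e-05). Bhmt, which remethylates homocysteine, had 11.5 ± 2.98 CPM with the combination, 4.62 ± 0.672 with dichloroacetate, 5.03 ± 0.669 with cisplatin and 8.38 ± 0.528 with saline (difference 2.06, SE 0.24, adjusted p = 0.000161). Kynu, an enzyme of tryptophan breakdown, had 7.603 ± 0.844 CPM with the combination, 3.25 ± 0.486 with dichloroacetate, 3.76 ± 0.857 with cisplatin and 6.44 ± 2.71 with saline (difference 1.99, SE 0.35, adjusted p = 0.00184). Folh1, a folate hydrolase of the brush border, had 152, 143 and 164 CPM in the combination mice and 62.8, 82.03 and 80.4 CPM in the dichloroacetate mice (log2 fold change 1.03, SE 0.16, adjusted p = 0.000198) and a log2 fold change of -0.38 without dichloroacetate, which did not pass the test. Dhrs3, Pla2g5 and Gm13855 also had positive values here (0.23, 0.396 and 0.34) and negative ones without dichloroacetate (-1.08, -1.18 and -1.07). Their calls under dichloroacetate were lost without some single libraries, with adjusted p up to 0.0909, 0.126 and 0.137. Msantd3 went the other way (-1.08, and -0.64 without dichloroacetate replicate 3, whose 10.3 CPM was above the 5.01 and 4.73 of the others).

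Falls were also among the genes whose response differed most. Slc25a21, a mitochondrial oxodicarboxylate carrier, had 3.64, 2.88 and 2.22 CPM in the combination mice and 20.1, 19.5 and 20.7 CPM in the dichloroacetate mice and a mean of 0.501 ± 0.242 CPM with cisplatin alone (difference 2.68, SE 0.28, adjusted p = 7.53e-05). Ksr2, a scaffold of the RAF pathway, had 8.42, 6.71 and 7.74 CPM in the combination mice and 18.3, 13.7 and 16.8 CPM in the dichloroacetate mice (log2 fold change -1.097, SE 0.16, adjusted p = 0.000105), against a log2 fold change of -3.56 without dichloroacetate (difference 2.47, SE 0.25, adjusted p = 6.98e-05). Cd68, a lysosomal protein of macrophages, rose from 2.17, 1.64 and 1.51 CPM to 4.16, 4.102 and 6.305 CPM, and its log2 fold change was 4.002 without dichloroacetate (difference -2.58, SE 0.35, adjusted p = 0.000383).

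Where a list is said to have no member that rose or fell, DESeq2 and the unadjusted edgeR p were compared. Among the responses, 1 collecting duct gene had a higher value at an unadjusted p below 0.05 and was called by DESeq2, and 1 early response gene had a lower value at an unadjusted p below 0.05 and was not. The other lists had no such gene. Among the differences, 2 nuclear factors had a negative value at an unadjusted p below 0.05, of which DESeq2 called 1. Early response genes had no positive difference, and genes of glucose synthesis no negative one, by either measure.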

How the data were processed

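RNA of whole kidneys was sequenced from TruSeq RNA libraries, a kit that in its basic form keeps no strand, so reads of overlapping or antisense genes cannot be told apart. The authors deposited whole-number counts per Ensembl gene, 1 column per mouse, and a table of normalised signal, which equals the deposited counts divided by 1 size factor per library (largest deviation 2.9e-11). The submitters' processing notes name Trimmomatic, TopHat, Cufflinks, HTSeq, bedtools, DESeq and mm10; versions and settings are not given in the sources used here. Identifiers were matched to GENCODE M21 (27955 of 28991).

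All 12 libraries entered 1 edgeR 4.0.16 quasi-likelihood fit in R 4.3.3 (4 groups, filterByExpr, TMM scaling, 20370 genes, 8 residual degrees of freedom, biological coefficient of variation 0.092). Contrasts were combination against dichloroacetate, cisplatin against saline, and their difference. p-values were adjusted by Benjamini-Hochberg over all genes, and SE is the log2 fold change divided by the root of F. CPM use TMM library sizes. Alternatives used DESeq2 1.42.0, limma 3.58.1 on log2(signal + 1), other filters and scaling, and libraries left out. On simulated data the fit recovered 73% of 1.5-fold and 94% of 2-fold changes between combination and dichloroacetate (20078 genes, 4% of calls false). The interaction recovered 46% and 80%. Only 100 genes were changed at each fold, all with a mean above 1 CPM, and the spread was that of the fit. The data held far more changed genes, some of lower CPM, so these shares need not hold for the reported calls.

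The genes, lists and tests were chosen with earlier results of these data known. Named genes were the 12 largest rises and falls without overlap and with at least 5 CPM, up to 3 called members per list and direction with at least 2 CPM, 28 set genes, the 8 largest differences per class and the 6 largest gains and losses of CPM. Of the genes this rule named, 3 are not reported here. Sample groups come from the labels; no library was counted as a duplicate (chi-square per degree of freedom of replicate pairs 4.4 to 26.32). With 3 mice per group, precision is limited by the mice, and for genes of few counts also by depth. Genes with near-identical copies (Gsta, Hba, Abcb1, Cyp4a, histones) are uncertain where reads could be split.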

Additional observations from a re-analysis of the deposited data

Results flagged for a closer look

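The difference between the responses to cisplatin with and without dichloroacetate passed the edgeR interaction test for 3783 genes, and 22 genes were singled out by it. Log2 differences, response under dichloroacetate minus response without, were negative for Krt20 (-4.33), Fosl1 (-3.24), Cxcl10 (-2.72), Cd68 (-2.58), Cxcl1 (-2.50), Atf3 (-2.38) and Msantd3 (-1.47). They were positive because a fall was smaller for Slc25a21 (2.68) and Ksr2 (2.47). They were positive with a larger rise for Cyp24a1 (1.96), Gm12451 (1.63), 5730437C11Rik (1.5), Abca1 (1.21), Acnat2 (1.14) and Rdh16f2 (1.07). They were positive with estimates of opposite sign for Bhmt (2.06), Kynu (1.99), Pla2g5 (1.58), Hao2 (1.44), Folh1 (1.41), Gm13855 (1.41) and Dhrs3 (1.31). Adjusted p ran from 9.22e-06 for Fosl1 to 0.0159 for Cyp24a1.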

How the results depend on the processing

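Counts of genes that rose and fell kept within 1.5 times of the reported 4377 and 3909 in every alternative: 3825 and 3980 with DESeq2, 3982 and 4110 with median-of-ratios scaling, 4070 and 4053 with limma, 4349 and 3844 in the 6 libraries alone, and 3511 to 4546 and 3298 to 4066 without 1 library. The interaction gave 2692 to 4213 calls without 1 library. Of 229 named genes 204 had the same call and direction throughout. Medians by span were, with median-of-ratios scaling, 0.066 (up to 5 kb), 0.058 (5 to 20), -0.013 (20 to 50) and -0.081 (50 to 100 kb). In genes of at least 5 CPM they were 0.105, 0.083, 0.019, -0.038 and -0.147 (100 to 200 kb). Without 1 library the classes, from short to long, ran from 0.069 to 0.098, 0.068 to 0.079, -0.003 to 0.013, -0.078 to -0.056, -0.215 to -0.173, -0.655 to -0.547 and -1.078 to -0.934. The adipocyte median ranged from -1.054 to 0.195 and reversed without combination replicate 2 (0.195) or 3 (0.118) or dichloroacetate replicate 1 (0.148); the cause was not tested.

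The main fit did not pair mice of equal replicate number. Deviations of same-numbered combination and dichloroacetate mice correlated weakly, at 0.082, 0.144 and 0.149, and each combination mouse correlated best with its own number. Whether equal numbers mark a shared batch was not tested. With the replicate block 4438 genes rose and 4033 fell, 8076 of them shared with the fit without it, and the difference was called for 3969. With 3 mice per group, the fit recovered 73% of simulated 1.5-fold changes. Changes under 1.5-fold were not simulated, so how many of them were missed is not known.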

Other observations

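The joining segments of the T cell receptor alpha locus moved together. Of 39 segments tested 38 rose, with a median log2 fold change of 1.70. They are not independent measurements: the 39 have 14 distinct sets of counts, and 15 of them share 1 set. They were chosen after their values were seen. Of 18 lymphocyte markers 9 were below the filter, among them the T cell genes Cd3e, Cd3d, Cd3g and Il7r. Of the 9 tested 0 were called higher by edgeR, 0 at an unadjusted p below 0.05 and 0 by DESeq2.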
